A study of Mus musculus with 11 samples.

Results

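The melanocyte lineage and pigment genes followed here were 10 named genes, taken by their Ensembl identifiers and Ensembl 96 symbols from the 55536 genes of each file. Mitf and Sox10 encode transcription factors, Kit and Ednrb receptors, Tyr, Tyrp1 and Dct enzymes, and Pmel, Mlana and Slc45a2 proteins of the pigment granule. Their RNA was counted in 11 libraries of sorted back-skin epidermal cells from male mice carrying CD4Cre and R26-tdT on the C57Bl6/N background. In these mice Cre is driven by a CD4 transgene, so that tdTomato (tdT) marks cells that expressed the driver and all their progeny. The 4 groups were tdT+CD49f+CD34+ cells without SCA-1 (3 libraries), tdTneg cells of the same kind (3 libraries), tdT+CD49f+CD34+SCA-1+ cells (3 libraries) and tdTneg CD49f+CD34+SCA-1+ cells (2 libraries). Each library pooled the cells of 2 mice, replicate 1 at 29 weeks of age and replicates 2 and 3 at 32 weeks, so that age and replicate number cannot be told apart. CD49f is an integrin of basal epidermal cells, CD34 marks the stem cells of the hair follicle bulge, and SCA-1 marks the interfollicular epidermis and infundibulum. The groups are called CD49f+CD34+ and SCA-1+ cells from here on.

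Melanocytes arise from the neural crest and settle, in mouse back skin, in the hair follicle, where their stem cells share the bulge and hair germ with keratinocyte stem cells. Mitf, with Sox10, switches on the pigment enzymes, while signals through Kit and Ednrb keep the lineage alive and dividing. The enzymes turn tyrosine into melanin inside melanosomes, whose fibres are built from Pmel. Of these genes, Dct, Tyrp1, Tyr, Pmel and Mlana are close to specific for pigment cells. Mitf, Kit and Ednrb are also known from other cell types.

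The libraries held 17409131 to 46542177 reads assigned to genes, and all 10 genes were among the 20307 that passed the filter on low counts. Keratinocyte transcripts prevailed: Krt5 stood between 8213 and 16210 normalized CPM (reads scaled to a common library size) in all libraries. Ly6a, which encodes SCA-1, was at 153 to 294 normalized CPM in the SCA-1+ libraries and at 2.46 to 59.2 in the others, whereas Cd34 reached only 22.3 to 35.7 in the tdT+ SCA-1+ libraries against 320 or more elsewhere. A row outside the Ensembl genes, which the sources used here do not describe, held 133 to 307 CPM in 5 of 6 tdT+ libraries and 2.54 to 4.89 in the tdTneg libraries. That row was at 2.05 CPM, a tdTneg level, in 1 library that carries a tdT+ label, replicate 2 of the tdT+CD49f+CD34+ cells. In this library endothelial markers summed to 954 normalized CPM against 10.9 and 92.5 in the other libraries of its group. The calls, and the main tdT effects in CD49f+CD34+ cells, are therefore also given without it; the correlations and ratios use all 11 libraries.

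The pigment genes made up a small share of the RNA. The 10 genes summed to 116 to 134 normalized CPM in tdT+CD49f+CD34+ cells and to 119 to 169 in tdTneg CD49f+CD34+ cells. In SCA-1+ cells the sum was 20.1 to 30.7 in the tdT+ and 59.5 to 72.7 in the tdTneg libraries. The groups of the 2 populations did not overlap in this sum. Mitf, which is also known from other cell types, made up 40.4 to 97.4 of it in CD49f+CD34+ libraries. Dct, Tyrp1, Tyr, Pmel and Mlana alone did overlap. They summed to 34.4 in tdTneg SCA-1+ replicate 1 and to 25.4 and 29.0 in tdT+CD49f+CD34+ replicates 2 and 3. Because the libraries are bulk samples, fewer cells of a type and less RNA per cell cannot be told apart.

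Set per transcript length, Mitf stood first in all 4 groups. In RPKM (normalized CPM divided by exon length in kilobases) its level was 11.6 ± 4.09 over the CD49f+CD34+ libraries (SD, n = 6), followed by Dct at 4.78 ± 1.74, Pmel at 3.89 ± 1.77 and Tyrp1 at 3.21 ± 0.931. Ednrb, Mlana, Kit and Sox10 lay between 1.30 and 0.540, and Slc45a2 at 0.263 and Tyr at 0.171 came last. Only the step from Mitf to Dct exceeded the spread of the libraries; all other neighbours in that order overlapped. In the SCA-1+ libraries the order began with Mitf at 2.44 ± 1.07 RPKM (SD, n = 5), Pmel at 2.07 ± 1.09, Ednrb at 1.38 ± 1.61 and Dct at 1.23 ± 1.18, and no pair of neighbours was separated. Tyr was again last, at 0.0386 RPKM.

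Of the 2 transcription factors among the 10 genes, Mitf (chr6:97807052-98021349, GRCm38, plus strand), the master factor of the lineage, was the more abundant per length. Its values were 40.4, 79.1 and 94.2 normalized CPM in tdT+CD49f+CD34+ replicates 1, 2 and 3, and 78.0, 40.5 and 97.4 in tdTneg CD49f+CD34+ replicates 1, 2 and 3. They were 12.5, 8.97 and 9.70 in tdT+ SCA-1+ replicates 1, 2 and 3, and 22.7 and 21.7 in tdTneg SCA-1+ replicates 1 and 2. All 6 CD49f+CD34+ libraries lay above all 5 SCA-1+ libraries, and within the SCA-1+ cells both tdTneg libraries lay above the 3 tdT+ libraries. Mitf is transcribed from several promoters that serve different cell types, and 3 start sites of the gene are in the RefSeq table used here, at window positions from 97806808 to 97991832 on chromosome 6. The counts are per gene and sum over all of them, so that the melanocyte form cannot be told from the others.

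Sox10 (chr15:79154908-79165240, minus strand), a neural crest factor upstream of Mitf, was scarce. It gave 38, 5 and 4 reads in tdT+CD49f+CD34+ cells and 135, 87 and 106 in tdTneg CD49f+CD34+ cells. In SCA-1+ cells it gave 2, 1 and 9 reads in the tdT+ and 39 and 11 in the tdTneg libraries. After normalization the 3 tdTneg CD49f+CD34+ libraries, at 2.30 to 2.79 CPM, were the highest of all, and tdT+CD49f+CD34+ replicate 1, at 1.72, stood apart from its 2 partners at 0.268 and 0.220.

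Of the receptors, Kit (chr5:75574916-75656722, plus strand), the receptor of stem cell factor, was at 8.57, 7.77 and 7.60 normalized CPM in tdT+CD49f+CD34+ replicates 1, 2 and 3 and at 5.60, 6.48 and 3.76 in the tdTneg ones. It was at 1.89, 3.75 and 1.75 in tdT+ SCA-1+ cells and at 5.47 and 6.53 in tdTneg SCA-1+ cells. The 3 tdT+ SCA-1+ libraries were thus the lowest, just under tdTneg CD49f+CD34+ replicate 3, while tdTneg SCA-1+ cells lay within the range of the tdTneg CD49f+CD34+ libraries or barely above it.

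Kit is also a marker of mast cells, whose listed genes differed in level. Fcer1a had no read in any library, and Cpa3, Cma1, Tpsb2, Tpsab1, Ms4a2, Mcpt4 and Mrgprb1 stayed at or below 0.826 normalized CPM. Mrgprb2, a mast cell receptor, reached 3.17, 1.31 and 5.37 in tdT+ SCA-1+ replicates 1, 2 and 3 and 4.62 and 0.628 in the tdTneg ones, and was at 0 to 2.09 in CD49f+CD34+ cells. The mast cell list as a whole had a count for 7 of 11 genes in each tdT+ group, for 10 in tdTneg CD49f+CD34+ and for 5 in tdTneg SCA-1+ cells. Its sum was 2.76 to 23.8 normalized CPM in the first 3 groups and 59.5 to 81.0 in tdTneg SCA-1+ cells, the latter made up mostly of Hdc and Gata2. The part of mast cells in the Kit values was not tested.

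Ednrb (chr14:103814625-103844402, minus strand), the endothelin receptor of melanoblasts, varied widely among libraries of one group. It was at 11.8, 7.39 and 2.15 normalized CPM in tdT+CD49f+CD34+ replicates 1, 2 and 3 and at 2.98, 6.13 and 2.68 in tdTneg CD49f+CD34+ cells. It was at 0.160, 1.42 and 2.43 in tdT+ SCA-1+ cells, and at 8.70 and 16.7 in tdTneg SCA-1+ cells. Both tdTneg SCA-1+ libraries lay above all tdTneg CD49f+CD34+ and all tdT+ SCA-1+ libraries, a pattern that none of the other 9 genes had.

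Some markers of other cell types moved with Ednrb in part of the libraries. The 10 endothelial genes, all with counts in every group, summed to 4183 and 4418 normalized CPM in the tdTneg SCA-1+ libraries, and to no more than 954 in any other library. Vwf, the clotting factor carrier of endothelium, was at 2195 and 2346 there and at 1.55 to 433 elsewhere. Within CD49f+CD34+ cells the 3 libraries with the most Ednrb were also those with the most Krt18, at 97.5, 44.5 and 50.5 normalized CPM against 0.268 to 0.744 in the other 3. In the tdTneg SCA-1+ libraries, with Ednrb at 8.70 and 16.7, Krt18 was only at 0.348 and 1.59. Those 3 CD49f+CD34+ libraries also had the highest endothelial sums of that population, at 92.5, 954 and 129 against 10.9 to 56.3. Krt8 and Krt18 were listed as Merkel cell markers, of which Atoh1 had no read in any library. Of the same list, Sox2 and Isl1 were at 1.90 and 1.74 normalized CPM in tdTneg CD49f+CD34+ replicate 2, one of those 3, and at no more than 0.103 and 0.380 in any other library. Piezo2 was at 3.08, 3.75 and 6.71 in those 3 and at 0.496 to 1.63 in the other CD49f+CD34+ libraries. Krt20 was at no more than 0.586 in any library. The macrophage genes Csf1r and Lyz2 were also highest in those 3 among CD49f+CD34+ libraries. Csf1r was at 33.4, 69.3 and 31.7 normalized CPM against 0.276 to 1.22, and Lyz2 at 35.2, 168 and 20.7 against 0.366 to 1.84. Cd74, H2-Aa, Cd207 and Mfge8 of the Langerhans and macrophage list did not rank so. The part of endothelial, macrophage or Krt18-bearing cells in the Ednrb values was not tested.

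The 3 enzymes were recovered at very different depth. Dct (chr14:118012790-118052244, minus strand), dopachrome tautomerase and an early marker of melanoblasts, was at 31.7, 11.7 and 19.2 normalized CPM in tdT+CD49f+CD34+ replicates 1, 2 and 3 and at 35.3, 33.8 and 37.2 in the tdTneg ones. It fell to 2.00, 8.23 and 1.29 in tdT+ SCA-1+ cells and to 18.6 and 6.16 in tdTneg SCA-1+ cells. Dct was near constant in tdTneg CD49f+CD34+ cells (SD 1.71 for a mean of 35.5, n = 3) and spread widely in the other groups.

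Tyrp1 (chr4:80834123-80851719, plus strand), which acts beside tyrosinase in making black pigment, was at 10.2, 5.57 and 6.67 normalized CPM in tdT+ and at 8.64, 12.6 and 10.8 in tdTneg CD49f+CD34+ cells. In SCA-1+ cells it was at 0.640, 4.26 and 1.08 in the tdT+ and at 5.76 and 3.06 in the tdTneg libraries. The highest SCA-1+ library, at 5.76, just exceeded the lowest CD49f+CD34+ library, at 5.57, which was tdT+ replicate 2. Tyrp1 and Dct went together: Pearson's r was 0.97 over the 11 libraries and 0.87 for the deviations from the group means, over libraries that share depth and composition.

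Tyr (chr7:87424771-87493512, minus strand), tyrosinase, the enzyme of the first step, was the least abundant per length. Its reads numbered 14, 33 and 0 in tdT+CD49f+CD34+, 72, 56 and 78 in tdTneg CD49f+CD34+, 0, 3 and 0 in tdT+ SCA-1+ and 38 and 0 in tdTneg SCA-1+ cells. A library with 0 reads allows up to 3 reads, which is 0.0799 to 0.165 normalized CPM in the 4 libraries without a Tyr read and covers counting error only. Tyr was present in all 3 tdTneg CD49f+CD34+ libraries, at 1.48 to 1.90 normalized CPM, and in every other group at least 1 library had none.

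Tyr, Tyrp1 and Dct share a sequence at their start sites that Mitf is known to bind, an E-box with the letters CATGTG. On the other strand it reads as CACATG. They are shown because 3 of the 9 start windows of these genes in the RefSeq table for GRCm38.p6 hold these letters, and those 3 are the windows of the 3 enzymes. The windows run from 250 bases before to 50 bases after each start and exist for 6 of the 10 genes, with 3 for Mitf and 2 for Kit. Of all 32851 windows of this length, 14.2% hold CATGTG on either strand. The longer TCATGTG, which contains it, is in the same 3 windows and in 3.77% of all, and CACGTG is in none of the 9 and in 7.15% of all. The 250 bases before each start follow, 5′ to 3′ on the strand of the gene, with the 6 letters in capitals.
Tyr, chr7:87493513-87493762, minus strand: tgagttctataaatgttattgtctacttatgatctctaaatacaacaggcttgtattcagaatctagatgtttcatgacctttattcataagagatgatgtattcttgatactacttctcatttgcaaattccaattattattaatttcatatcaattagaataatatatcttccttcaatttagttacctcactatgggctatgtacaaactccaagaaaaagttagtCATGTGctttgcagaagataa
Tyrp1, chr4:80833963-80834212, plus strand: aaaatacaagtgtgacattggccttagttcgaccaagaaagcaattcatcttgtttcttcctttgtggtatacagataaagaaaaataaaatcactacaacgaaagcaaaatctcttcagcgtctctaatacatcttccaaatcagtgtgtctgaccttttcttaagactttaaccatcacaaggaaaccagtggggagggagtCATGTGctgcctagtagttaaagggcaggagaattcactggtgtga
Dct, chr14:118052247-118052496, minus strand: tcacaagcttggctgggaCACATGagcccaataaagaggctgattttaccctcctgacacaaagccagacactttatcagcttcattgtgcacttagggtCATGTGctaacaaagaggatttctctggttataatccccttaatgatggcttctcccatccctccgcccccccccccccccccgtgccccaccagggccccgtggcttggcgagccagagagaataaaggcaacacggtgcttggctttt
The letters begin 21 bases before the start of Tyr, 46 before that of Tyrp1, and 232 and 150 before that of Dct. A match is a description of the letters and not evidence of binding. Slc45a2, Sox10, Pmel and Mlana have no entry in that table.

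Among the proteins of the melanosome, Pmel (chr10:128704195-128720238, plus strand), the fibre protein, was at 9.019, 5.999 and 2.645 normalized CPM in tdT+ and at 11.03, 14.03 and 10.73 in tdTneg CD49f+CD34+ cells. It was at 5.33, 2.16 and 3.10 in tdT+ SCA-1+ and at 8.64 and 4.48 in tdTneg SCA-1+ cells. The 3 tdTneg CD49f+CD34+ libraries were the highest of the 11, and the other groups overlapped. Exons of Pmel share 139 bases with Cdk2 and Dgka on the opposite strand. The libraries are unstranded, so that reads on those bases cannot be assigned by strand, and the Pmel values are uncertain to that extent. No other of the 10 genes shares exon sequence with a neighbour.

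Mlana (chr19:29697824-29708634, plus strand), the melanosome antigen MART-1, and Slc45a2 (chr15:11000721-11029233, plus strand), a melanosome transporter, gave few reads. Mlana gave 32, 6 and 8 reads in tdT+ and 28, 46 and 55 in tdTneg CD49f+CD34+ cells, and 3, 15 and 5 in tdT+ and 8 and 2 in tdTneg SCA-1+ cells. Slc45a2 gave 9, 19 and 20, then 16, 33 and 40, then 0, 15 and 0, and finally 7 and 8 reads in the same order of groups. In tdT+ SCA-1+ cells replicate 2 held most reads of both genes, as it did for Tyr, Tyrp1 and Dct.

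**Figure D1:**
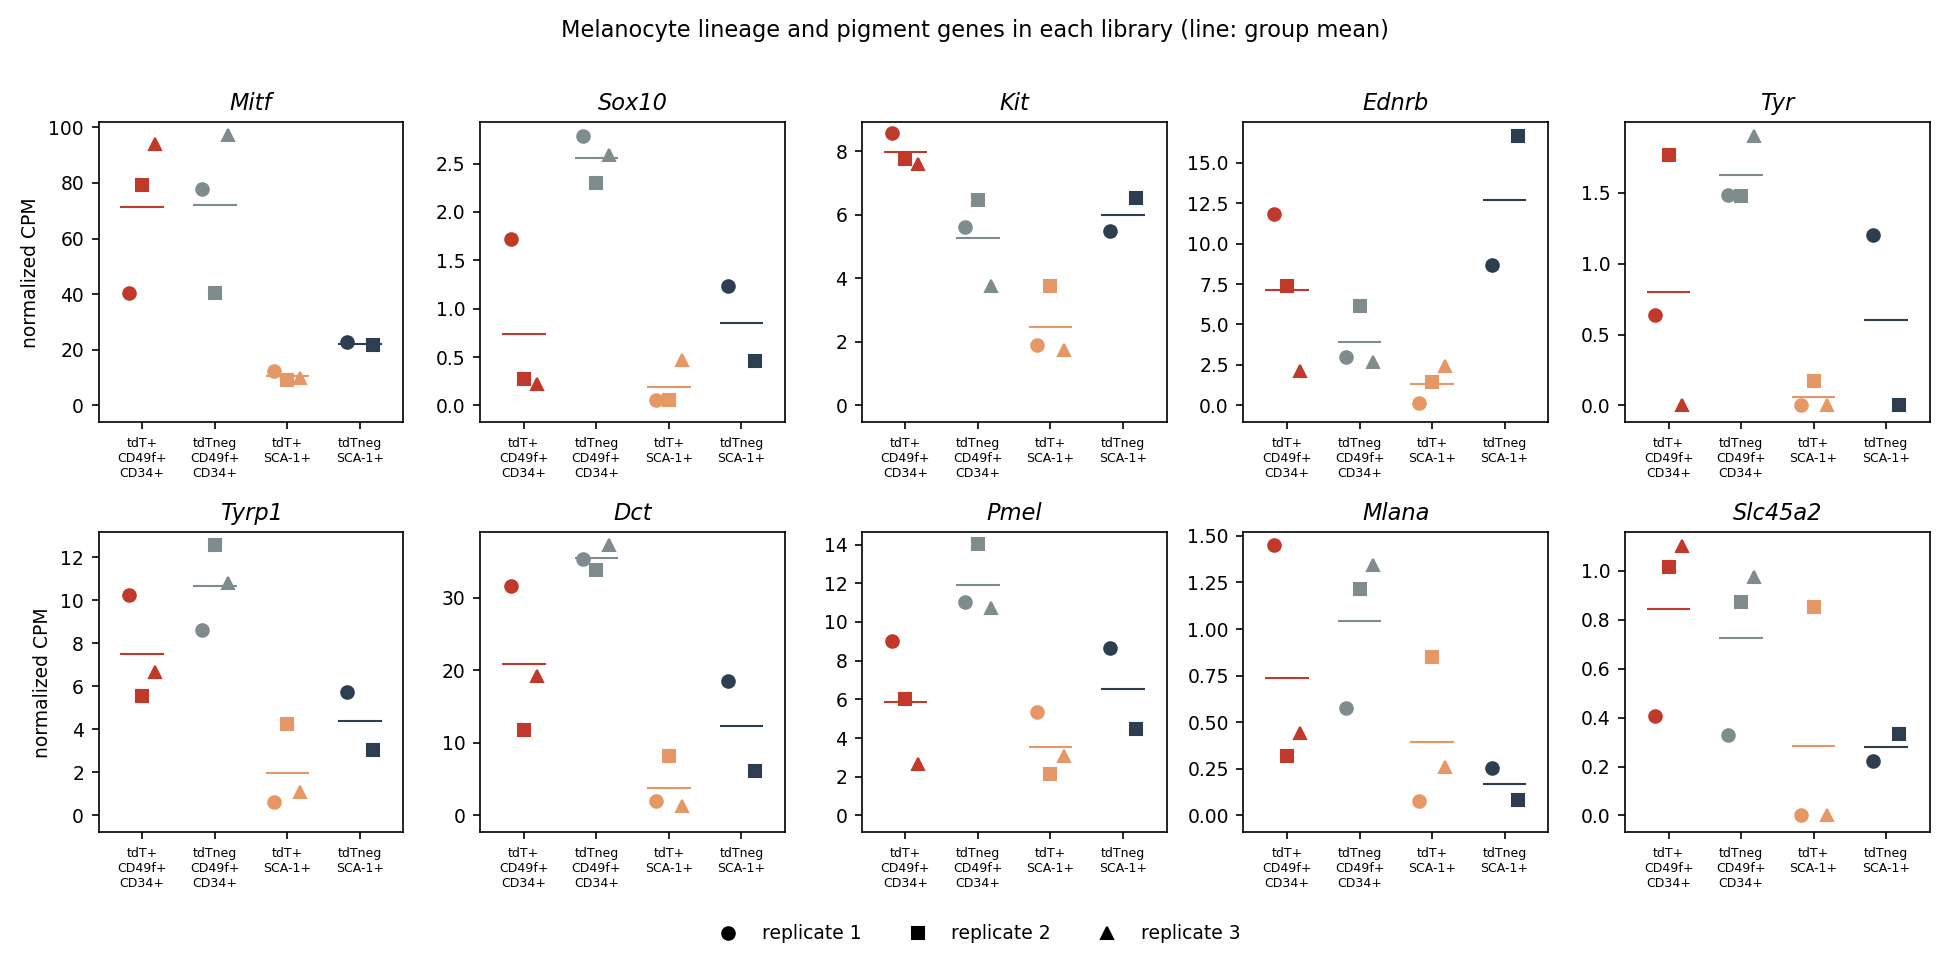
Normalized CPM (linear axis from 0) of each of the 10 genes in every library, by group; symbols mark the replicate and lines the group means. Mitf separates the CD49f+CD34+ libraries (40.4 or more) from the SCA-1+ libraries (22.7 or less), and Ednrb is highest in tdTneg SCA-1+ replicate 2 at 16.7.

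The first comparison set SCA-1+ against CD49f+CD34+ cells, averaged over tdT status. Mitf, Dct and Tyrp1 fell in the SCA-1+ cells. Mitf was 4.70-fold lower (log2 fold change -2.23, SE 0.28, edgeR adjusted p = 0.000764), with all 5 SCA-1+ libraries under all 6 others. Dct was 3.96-fold lower (-1.99, SE 0.52, adjusted p = 0.0264) and Tyrp1 3.02-fold lower (-1.60, SE 0.49, adjusted p = 0.0462), each with overlap between the populations.

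Of all genes tested, 6.79% were called lower in this comparison, at an adjusted p under 0.05 and a log2 fold change beyond 1, against 3 of the 10 pigment genes; 4.77% of all genes and none of the 10 were called higher. All 10 fitted log2 fold changes were below 0, as were those of 55.9% of all genes. The median over the 10 was -1.67 beside -0.09 over all genes tested. The other 7 genes ran from -2.66 for Tyr to -0.37 for Ednrb with adjusted p from 0.0930 for Kit to 0.727 for Ednrb. Mitf alone of the 10 had all SCA-1+ libraries below all others, as 5.67% of all genes did.

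Mitf kept its call when any 1 of the 11 libraries was left out (log2 fold change -2.38 to -2.09). Dct lost it without tdT+CD49f+CD34+ replicate 1, tdT+ SCA-1+ replicate 1 or tdTneg SCA-1+ replicate 2 (adjusted p up to 0.127). Tyrp1 kept it only without tdT+ SCA-1+ replicate 2; it lost it without each of the other 10 (adjusted p 0.0554 to 0.202) and with the replicate number as a block (adjusted p = 0.0583). Without the doubted library, tdT+CD49f+CD34+ replicate 2, Mitf and Dct were called.

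Within the tdT+ cells, Mitf, Kit and Dct fell. Mitf was 6.83-fold lower in SCA-1+ than in CD49f+CD34+ cells (log2 fold change -2.77, SE 0.38, adjusted p = 0.00171). Dct was 5.47-fold lower (-2.45, SE 0.69, adjusted p = 0.0456) and Kit 3.24-fold lower (-1.70, SE 0.39, adjusted p = 0.0198). Here 5.54% of all genes were called lower, against 3 of 10. All 10 log2 fold changes were below 0, against 53.4% of all genes, with a median of -1.94 beside -0.07. For 4 genes, Mitf, Kit, Dct and Tyrp1, the 3 SCA-1+ libraries did not overlap the 3 CD49f+CD34+ ones and lay below them; libraries did not overlap, in either direction, for 30.4% of all genes. Tyrp1 had a log2 fold change of -1.92 (SE 0.65, adjusted p = 0.0794).

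The tdT+ call of Mitf held in all 11 fits with 1 library left out. Kit lost it in 3 of those fits, without tdT+CD49f+CD34+ replicate 1 or tdT+ SCA-1+ replicate 1 or 3 (adjusted p up to 0.0661). Dct kept it in 4 of 11 (adjusted p up to 0.131) and lost it with the replicate number as a block (adjusted p = 0.0734). Fitted on the compared groups alone, Kit (adjusted p = 0.0518) and Dct (0.0779) lost their calls and Mitf kept it. Without the doubted library the same 3 genes were called.

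Within the tdTneg cells Mitf was the only one of the 10 called, 3.24-fold lower in SCA-1+ cells (log2 fold change -1.70, SE 0.42, adjusted p = 0.0429), where 1.45% of all genes were called lower. For 7 genes, Mitf, Sox10, Tyr, Tyrp1, Dct, Pmel and Mlana, both SCA-1+ libraries lay under the 3 CD49f+CD34+ libraries, as for 26.4% of all genes in this comparison of 2 against 3. Dct had a log2 fold change of -1.52 (SE 0.77, adjusted p = 0.292) and Tyrp1 of -1.27 (SE 0.72, adjusted p = 0.350). Ednrb was above in both SCA-1+ libraries, as 19.9% of all genes were. The fitted values of the receptors were 1.69 (SE 0.92, adjusted p = 0.329) for Ednrb and 0.19 (SE 0.42, adjusted p = 0.852) for Kit. In all, 8 of 10 values were below 0, against 58.3% of all genes, and the median was -1.39 beside -0.13. The Mitf call was lost without tdT+CD49f+CD34+ replicate 2 (adjusted p = 0.0550), in 7 of the other 10 such fits (up to 0.286), and with the replicate number as a block (0.0850).

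The second comparison set tdT+ against tdTneg cells of the same population, that is, cells with a history of CD4 driver activity against cells without it. In CD49f+CD34+ cells edgeR called none of the 10 genes and none had an unadjusted p under 0.05, whereas 0.00985% of all genes were called and 8.42% had such a p. Pmel came nearest, with a log2 fold change of -1.02 (SE 0.50, 95% interval -2.13 to 0.09, adjusted p = 0.618). Mitf had a value of -0.01 (95% interval -0.79 to 0.76), and its sign turned under another scaling (0.08 with the size factors of DESeq2).

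Sox10, Dct and Pmel were lower in all 3 tdT+CD49f+CD34+ libraries than in the 3 tdTneg ones, and Kit was higher in all 3. Libraries lay apart in the lower direction for 10.9% and in the higher for 5.07% of all genes. The log2 fold changes were -1.78 (95% interval -4.04 to 0.48) for Sox10, -0.76 (-2.22 to 0.69) for Dct and 0.60 (-0.25 to 1.44) for Kit. The intervals of all 10 genes included 0, and that of Tyr ran from -4.67 to 2.63. Values were below 0 for 7 of 10, against 52.6% of all genes, and the median was -0.50 beside -0.03. Without replicate 2 of the tdT+ cells the log2 fold changes were -1.39 for Sox10, -0.48 for Dct, -1.03 for Pmel, 0.61 for Kit and -0.10 for Mitf, and none of the 10 genes was called.

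In SCA-1+ cells, with 3 tdT+ and 2 tdTneg libraries, edgeR again called none of the 10, where 2.31% of all genes were called. Unadjusted p was under 0.05 for 4 genes, Ednrb, Kit, Mitf and Dct, against 14.6% of all genes. Ednrb had a log2 fold change of -3.26 (SE 0.96, adjusted p = 0.132), Kit of -1.29 (SE 0.42, adjusted p = 0.171), Mitf of -1.09 (SE 0.39, adjusted p = 0.214) and Dct of -1.70 (SE 0.73, adjusted p = 0.316). For Ednrb, Kit and Mitf the 3 tdT+ libraries lay below both tdTneg libraries, as for 17.2% of all genes. Values were below 0 for 9 of 10, against 45.7% of all genes, and the median was -1.22 beside 0.04. DESeq2 called 2 of the 10 lower in tdT+ SCA-1+ cells, Ednrb (adjusted p = 0.00423) and Kit (adjusted p = 0.0264). In either direction it called 1230 genes, 3.02% of the 40782 it tested, where edgeR called 470 of 20307. Without tdT+ SCA-1+ replicate 2 edgeR called Dct (adjusted p = 0.0470). The endothelial markers summed to 4183 and 4418 normalized CPM in the 2 tdTneg libraries and to 60.2 to 144 in the 3 tdT+ ones. Their part in the tdT values of the 10 genes was not tested.

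The difference between these 2 tdT effects was tested as an interaction. EdgeR called none of the 10 genes, against 0.389% of all genes, and 2 had an unadjusted p under 0.05, against 12.4%. These were Ednrb (log2 difference -4.12, SE 1.28, adjusted p = 0.219) and Kit (-1.88, SE 0.56, adjusted p = 0.202). DESeq2 called both, with adjusted p of 0.0115 and 0.0126, beside 845 genes, 2.07% of the 40782 it tested. Both were higher in tdT+ than in tdTneg CD49f+CD34+ cells by the fitted value and lower in SCA-1+ cells. Without tdT+CD49f+CD34+ replicate 2 the edgeR differences were -4.09 for Ednrb and -1.90 for Kit (adjusted p 0.339 and 0.324). For Mitf the difference was -1.08 (SE 0.52, adjusted p = 0.443). Differences were below 0 for 8 of 10 genes, against 47.5% of all genes, and the median was -0.79 beside 0.05. The endothelial markers that moved with Ednrb had log2 differences below 0 for all 10 genes, with a median of -7.14.

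**Figure D2:**
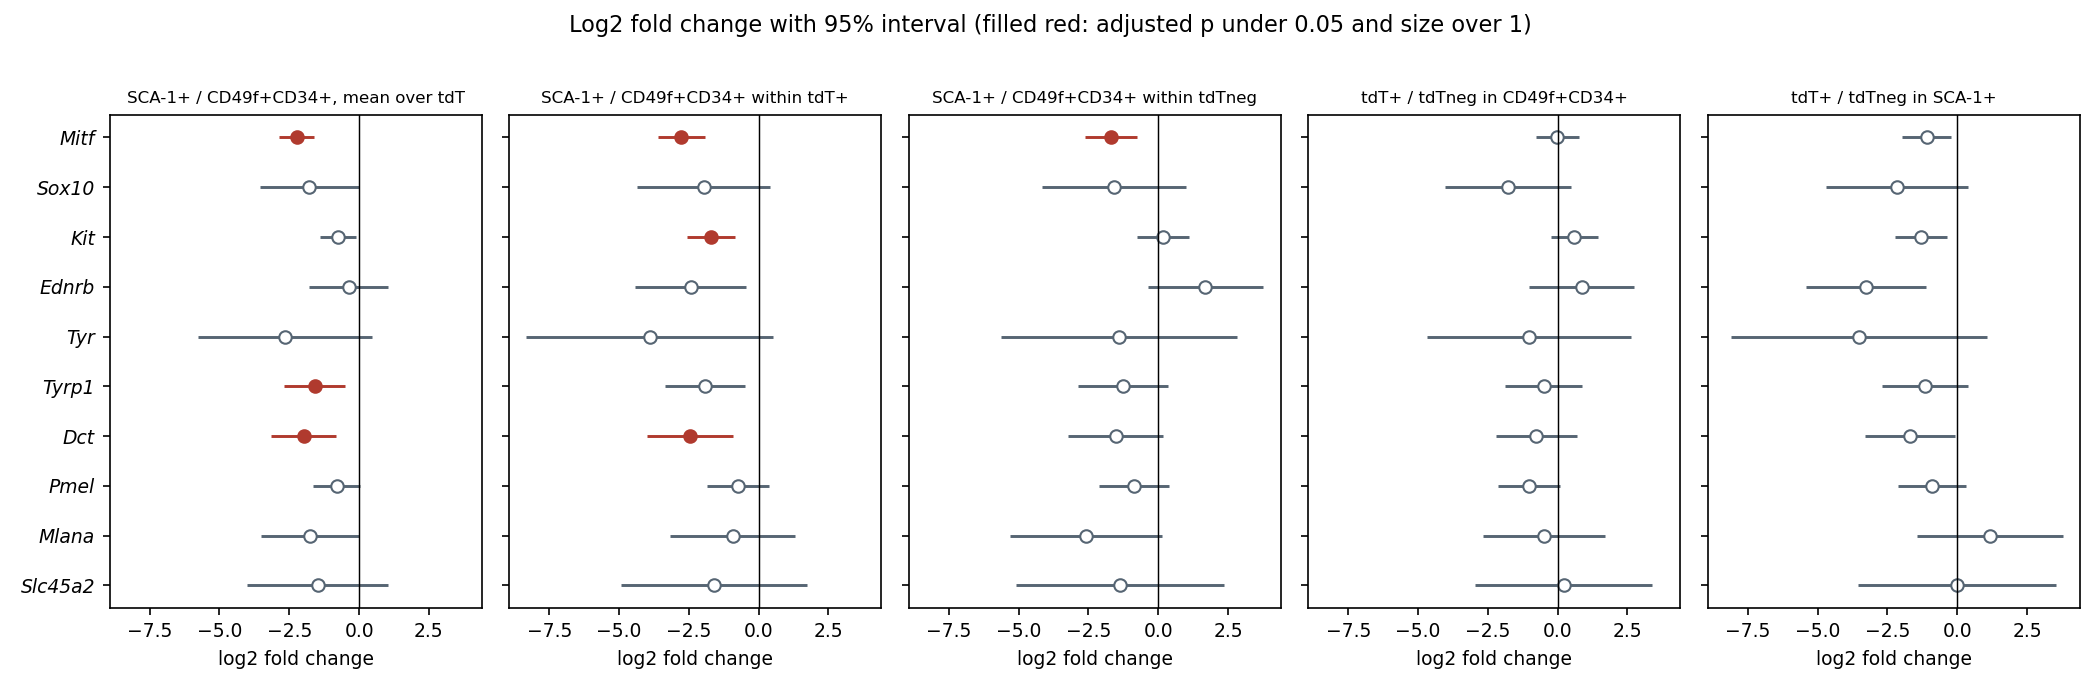
Log2 fold change (x axis) of the 10 genes with its 95% interval in 5 comparisons, from the edgeR fit to 11 libraries; filled red points passed both thresholds. Called genes, Mitf, Kit, Dct and Tyrp1, all lie left of 0 in comparisons between populations, and none is called between tdT+ and tdTneg cells.

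The 10 genes were then set against each other across the libraries. Dct, Tyrp1, Tyr, Pmel and Mlana, the 5 pigment-cell genes, summed to 57.1 to 63.1 normalized CPM in tdTneg CD49f+CD34+ cells and to 53.0, 25.4 and 29.0 in tdT+CD49f+CD34+ replicates 1, 2 and 3. The sum was 8.05, 15.7 and 5.73 in tdT+ SCA-1+ and 34.4 and 13.8 in tdTneg SCA-1+ cells, so that the 2 populations overlapped. The 3 tdTneg CD49f+CD34+ libraries were the highest and the closest together, and replicate 1 was the highest library in the tdT+CD49f+CD34+ and in the tdTneg SCA-1+ group. Pearson's r of their 10 pairs, on log2 CPM over 11 libraries, ran from 0.38 to 0.97 with a median of 0.73; for deviations from the group means it ran from -0.19 to 0.92 with a median of 0.44. The highest of these deviations were shared by Tyrp1 and Mlana.

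Mitf was less close to them within groups. Its r with Dct was 0.76 over the libraries and -0.27 for deviations from the group means, and with Tyrp1 0.72 and -0.44. Set per length, Mitf stood at 1.21, 6.42 and 4.66 times the level of Dct in tdT+CD49f+CD34+ replicates 1, 2 and 3 and at 2.10, 1.14 and 2.49 times in the tdTneg ones. In SCA-1+ cells the ratio was 5.96, 1.04 and 7.15 in the tdT+ and 1.16 and 3.36 in the tdTneg libraries. The ratios of the 2 populations overlapped, and the lowest and the highest of all 11 libraries were both tdT+ SCA-1+ cells.

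**Figure D3:**
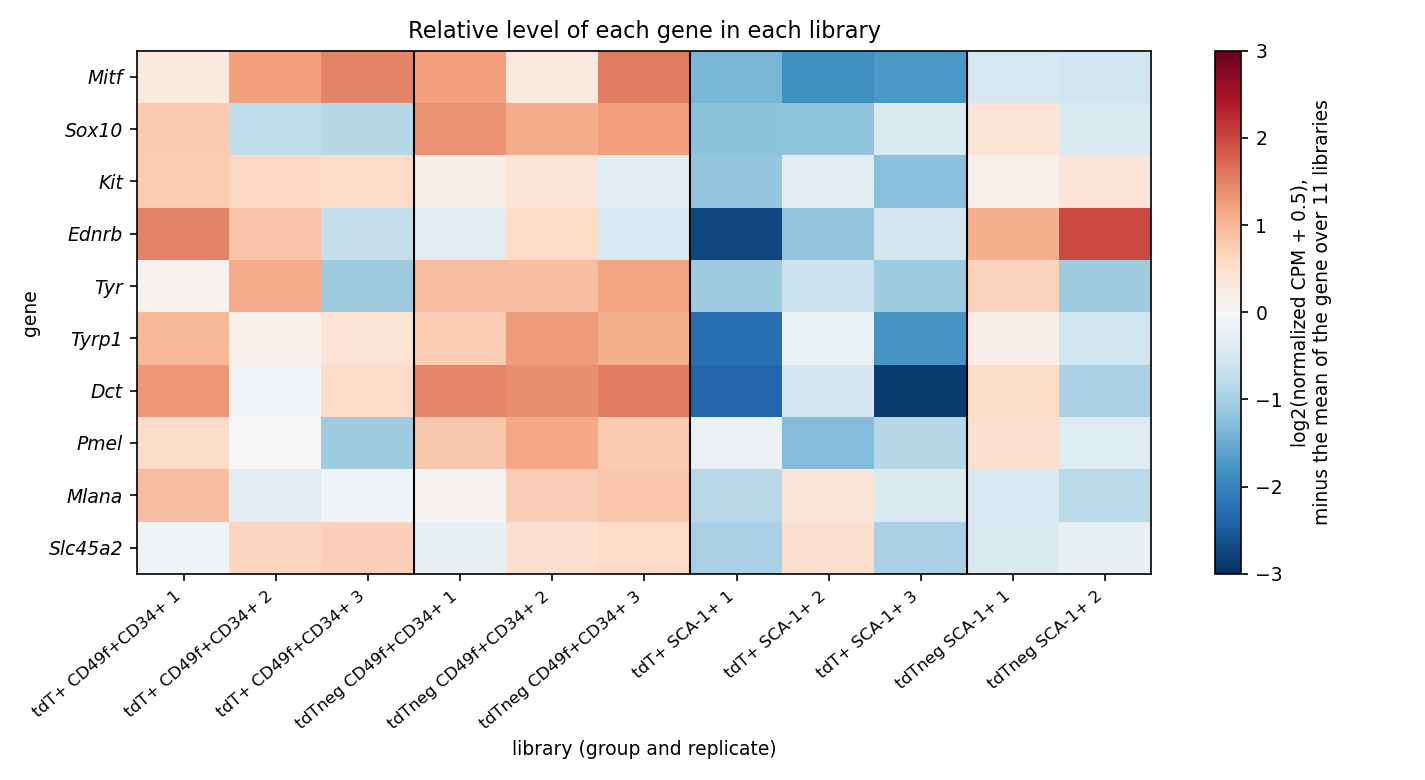
Heat map of log2(normalized CPM + 0.5) of each gene minus its mean over the 11 libraries; rows are genes, columns are libraries, vertical lines part the groups. Dct, Tyrp1 and Mitf are blue in tdT+ SCA-1+ cells, and Ednrb stands apart from them with its highest value in tdTneg SCA-1+ replicate 2.

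Among 14969 genes outside all lists, the 10 most like the mean of the 5 pigment-cell genes were Sdccag8, Ptgds, Gdf10, Oxnad1, Zbtb38, Zfp787, Gkap1, Decr1, Mkx and Sall2, with Pearson's r from 0.936 for Sdccag8 to 0.890 for Sall2 over 11 libraries. Ptgds, a prostaglandin D synthase, was at 2.05 ± 0.872 normalized CPM in CD49f+CD34+ (SD, n = 6) and at 0.636 ± 0.473 in SCA-1+ cells (SD, n = 5). Gdf10, a member of the TGF-beta family, was at 38.2 ± 25.8 and 3.71 ± 3.50. By deviations from the group means none of the 10 remained among the first 10, and by Spearman's coefficient 4 did.

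The wider pathway was read from 64 further pigment genes in 4 lists, of which 58 passed the filter. Between the populations 7 were called higher and 3 lower in SCA-1+ cells, beside 4.77% and 6.79% of all genes. Their median log2 fold change was 0.02 beside -0.09 for all genes. Without tdT+CD49f+CD34+ replicate 2 the same 10 were called, no call of these genes in the other comparisons was lost, and within tdT+ cells Bmp4 (3.44, adjusted p = 0.0147) and Gpnmb (1.93, adjusted p = 0.0153) were added.

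Of 11 lineage factors tested, Pax3 and Tfap2b fell and Irf4 rose. Pax3, which acts upstream of Mitf, had a log2 fold change of -2.44 (SE 0.65, adjusted p = 0.0281). Tfap2b, an AP-2 factor, fell by 1.67 (SE 0.23, adjusted p = 0.00110) and is, per length, the second most abundant of the list, after Snai2 and before Tfap2a. Irf4, which acts with Mitf at Tyr but is also an immune cell factor, rose by 2.53 (SE 0.53, adjusted p = 0.00958). Lymphoid markers rose beside it, 8 of 9 being called higher, with sums of 186 to 1203 normalized CPM in SCA-1+ and 27.1 to 115 in CD49f+CD34+ cells, and their part in the Irf4 value was not tested. Snai2 had -0.25 (adjusted p = 0.0819) and Tfap2a 0.55 (adjusted p = 0.0375), under the size threshold. Foxd3 had no read in tdT+ SCA-1+ cells.

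Of 15 signals and receptors tested, Ednra fell and Edn1 and Bmp4 rose. Edn1 is a ligand of both endothelin receptors, Ednra and Ednrb. Ednra was at 27.0 to 60.4 normalized CPM in CD49f+CD34+ and at 4.18 to 23.2 in SCA-1+ libraries (log2 fold change -2.21, SE 0.30, adjusted p = 0.00111). Edn1 was at 80.15 and 65.09 in the 2 tdTneg SCA-1+ libraries and at no more than 13.9 elsewhere (2.48, SE 0.60, adjusted p = 0.0180). The endothelial markers were highest in the same 2 libraries, and their part in the Edn1 value was not tested. Edn3, the ligand that melanoblasts depend on, was at no more than 0.335 normalized CPM in any library.

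Bmp4 had a log2 fold change of 3.46 (SE 0.55, adjusted p = 0.00220). Ece1, which activates endothelins, was the most abundant of the list per length and was called only within tdTneg cells (1.18, SE 0.26, adjusted p = 0.0302), where the endothelial sums were 4183 and 4418 in SCA-1+ and 36.8 to 129 normalized CPM in CD49f+CD34+ cells and their part was not tested. Erbb3 (0.56, adjusted p = 0.0355) and Met (-0.12, adjusted p = 0.659) came next in level and were not called. Kitl, the ligand of Kit, was at 37.0 to 123 normalized CPM in all libraries with a log2 fold change of 0.48 (adjusted p = 0.0861). Mc1r, the receptor of melanocortin, was at no more than 0.454, and Pomc and Asip, which encode its ligands, had no read in tdT+CD49f+CD34+ cells.

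Of 12 genes of melanosome content tested, Gpnmb (1.78, SE 0.31, adjusted p = 0.00351) and Bace2 (1.20, SE 0.19, adjusted p = 0.00228) rose and none fell. Gpnmb is also a macrophage gene, and the Langerhans and macrophage markers, all 8 with counts, summed to 363 to 1246 normalized CPM in SCA-1+ and to 125 to 637 in CD49f+CD34+ cells; their part was not tested. Bace2, a protease that cuts Pmel, was at 63.1 and 62.4 normalized CPM in tdTneg SCA-1+ cells and at 10.1 to 20.3 in all other libraries. The 2 high libraries are those with the highest endothelial sums, 4183 and 4418 against at most 954 elsewhere, and the part of endothelial cells in the Bace2 value was not tested. It was the one gene of the 58 tested that was called between tdT+ and tdTneg SCA-1+ cells (-1.74, SE 0.28, adjusted p = 0.0115), where 2.31% of all genes were called. Atp6ap2, Cd63 and Ctns, the most abundant per length, were not called; Cd63 (-0.66, adjusted p = 0.0196) and Ctns (-0.61, adjusted p = 0.00497) were under the size threshold. Slc24a5, a melanosome exchanger, stayed at or below 1.56 normalized CPM (-1.43, SE 0.59, adjusted p = 0.116), and Oca2 and Gpr143 had no read in tdTneg SCA-1+ cells.

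All 20 genes of melanosome transport and biogenesis were tested, and Rab27a and Mreg rose. Rab27a, the GTPase that ties melanosomes to actin and also serves lymphocyte granules, had 30.5 to 76.5 normalized CPM in SCA-1+ and 3.51 to 20.5 in CD49f+CD34+ cells (2.86, SE 0.30, adjusted p = 0.000368). The lymphoid markers rose in the same comparison, with the sums given for Irf4, and their part in the Rab27a value was not tested. Mreg, melanoregulin, had 39.67 to 95.95 and 14.1 to 36.4 (1.47, SE 0.21, adjusted p = 0.00125). Rab38, which carries Tyr and Tyrp1 to melanosomes, was called within tdT+ cells (1.24, SE 0.25, adjusted p = 0.0115); Rab38, Mreg and Ap3d1 were the most abundant per length.

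**Figure D4:**
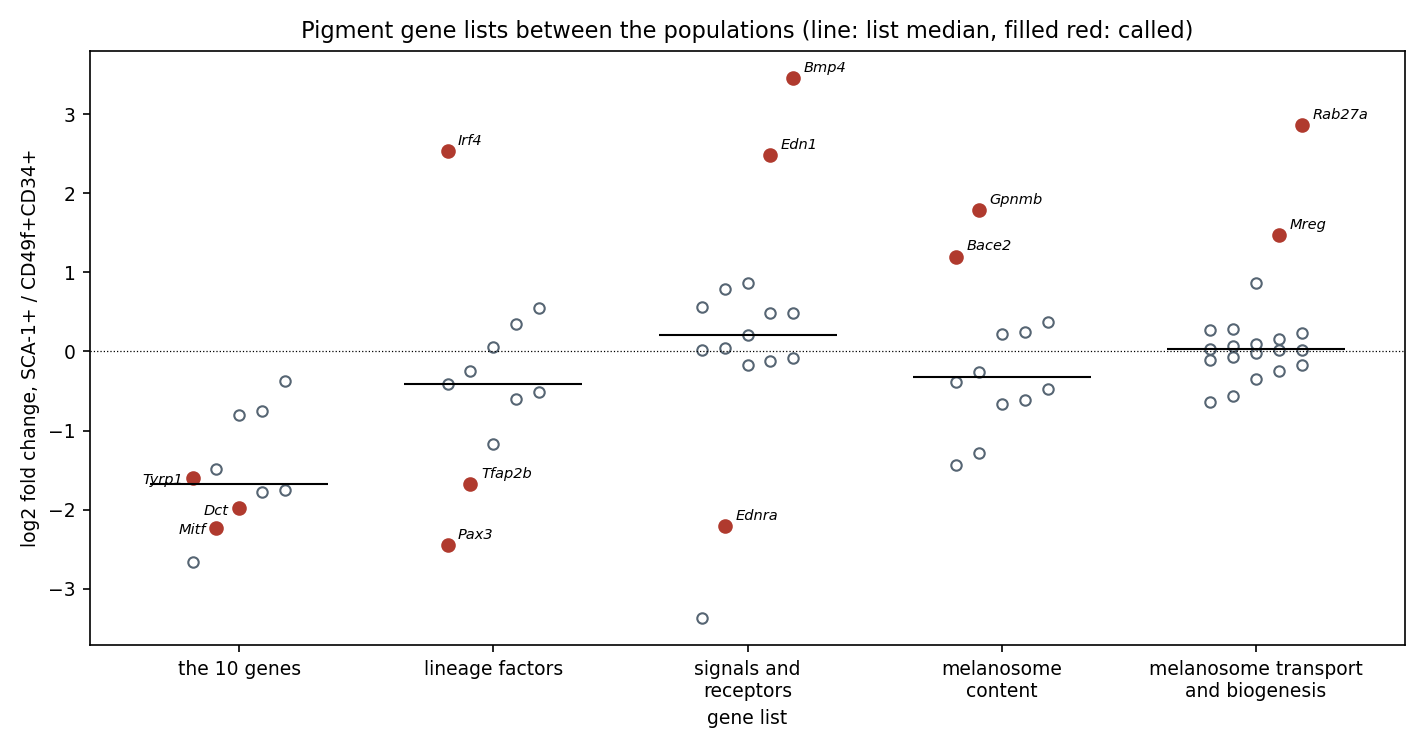
Log2 fold change between SCA-1+ and CD49f+CD34+ cells, averaged over tdT status (y axis), for the 10 genes and 4 further pigment lists; each point is a gene that passed the filter, lines are list medians and called genes are filled red. The median is -1.67 for the 10 genes and lies between -0.41 and 0.21 for the further lists, in which called genes lie on both sides of 0.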

How the data were processed

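RNA of 11 sorted cell samples was measured by Illumina sequencing of unstranded TruSeq RNA v2 libraries. The deposited files hold raw counts per gene, which the authors made by aligning reads with STAR to mm10 with 2 mismatches allowed in 50 bases and counting them with featureCounts on Ensembl 96 genes; the strand setting is not given in the sources used here. Identifiers were matched to GENCODE M21 (55536 of 55536), whose exon unions gave RPKM levels. Genes were filtered with filterByExpr, scaled by TMM and tested in edgeR 4.0.16 with the quasi-likelihood test on 1 mean per group, with Benjamini-Hochberg adjustment over 20307 genes. Calls needed an adjusted p under 0.05 together with a log2 fold change beyond 1 in either direction. Normalized CPM are scaled by TMM. Likeness was Pearson's r of log2 CPM (prior count 2, mean of at least 1 CPM). Alternatives were another scaling, DESeq2 1.42.0, other filters, a replicate block, fewer groups and leaving out each library. Replicate numbers were used as a block because the study counts 3 biological replicates in all, each of 2 mice; that the same mice gave every population is not stated, so the pairing is an assumption. Deviations of 15 same-numbered pairs correlated at a median of 0.08 (-0.42 to 0.59) against -0.02 for 30 other pairs. The fit was tested on simulated counts. The 10 genes, the lists and the naming rule (all 10, called or most abundant genes of the lists, 10 most like genes) were chosen with earlier results of these data known; Kitl, Edn3, Mc1r, Pomc, Asip, Oca2, Gpr143, Foxd3 and Slc24a5 were named after their values were seen. P-values measure the spread between pools of 2 mice.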

Additional observations from a re-analysis of the deposited data

Results flagged for a closer look

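In 20 checks of the 10 genes in the 2 populations, 2 libraries stood apart. The rate of about 1 in 20 that chance gives holds only for libraries of the same kind. Each population here mixes 2 groups, so that this rate need not apply. Tyr in SCA-1+ cells was at 1.202 normalized CPM in tdTneg replicate 1, with a gap to the next library of 0.858 of the range over 5 libraries. Mlana in SCA-1+ cells was at 0.852 normalized CPM in tdT+ replicate 2, with a gap of 0.769 of the range; these 5 libraries belong to 2 groups.

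The row outside the Ensembl genes, which no comparison used, was higher in 5 of 6 tdT+ libraries (133 to 307 CPM) than in every tdTneg library (2.54 to 4.89 CPM), and at 2.05 CPM in tdT+CD49f+CD34+ replicate 2.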

How the results depend on the processing

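Between SCA-1+ and CD49f+CD34+ cells averaged over tdT status, 1 to 4 of the 10 genes were called when 1 library was left out, beside 3 with all. Within tdT+ cells 3 became 5 with DESeq2 or with a filter of 1 count in any library, 1 with the compared groups alone (Mitf), and 1 to 5 without 1 library. Within tdTneg cells 1 became 0 with the replicate block and with the compared groups alone, and 0 to 1 without 1 library. Between tdT+ and tdTneg SCA-1+ cells 0 became 2 with DESeq2, 1 with the filter of 1 count in any library (Ednrb), 1 with the compared groups alone (Mitf) and 0 to 1 without 1 library. The interaction gave 2 with DESeq2, 1 with that filter and 0 in each fit without 1 library. Between tdT+ and tdTneg CD49f+CD34+ cells each fit without 1 library also gave 0. Leaving out a tdTneg SCA-1+ library left 1, which was assumed to vary like the other groups. The share of all genes called moved too. Within tdT+ cells it was 8.45% (1715 genes) with all settings as reported, 8.39% (3423) with DESeq2 and 5.96% (2462) with the filter of 1 count. With the compared groups alone it was 8.85% (1431). The shares rest on unlike numbers of genes tested. These were 20307 as reported, 40782 with DESeq2, 41302 with that filter and 16174 for the tdT+ groups alone. Within tdTneg cells the share was 4.74% (963 genes), 3.99% (811) with the block and 7.61% (1452) with the compared groups alone. Between tdT groups of SCA-1+ cells the share was 2.31% (470 genes), then 3.02% (1230) with DESeq2 and 2.14% (885) with that filter. With the compared groups alone it was 5.09% (885). In the interaction it was 0.389%, then 2.07% with DESeq2 and 1.38% with that filter. The cause of these changes was not tested.

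The log2 fold change of Mitf between tdT+ and tdTneg CD49f+CD34+ cells, -0.01, turned to 0.0762 with RLE size factors, 0.0766 with DESeq2, 0.0917 with a filter of 10 counts in every library, 0.0185 with the replicate block and 0.0394 with the compared groups alone, and ran from -0.30 to 0.27 without 1 library. That of Pmel in the interaction, 0.13, turned to -0.0030 with RLE, -0.00051 with DESeq2 and -0.0214 with the filter of 10 counts, and ran from -0.30 to 0.69. Without 1 library, signs also turned for Slc45a2 (-0.13 to 0.54 in CD49f+CD34+, -6.11 to 0.60 in SCA-1+ cells, -6.36 to 0.39 in the interaction), Tyr (-7.25 to 3.62 in SCA-1+ cells, -6.27 to 4.64 in the interaction), Mlana (-0.12 to 2.15 between tdT groups of SCA-1+ cells, -2.16 to 0.0269 between populations within tdT+ cells), Kit (-0.0085 to 0.36 between populations within tdTneg cells), Sox10 (-2.08 to 1.20) and Dct (-2.22 to 0.0848), both in the interaction. The replicate block changed no call other than those of Tyrp1, Dct and Mitf given above. RLE moved the median log2 difference of all genes in the interaction from 0.05 to -0.07.

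Of the 10 most like genes, 4 were shared with Spearman's coefficient, 7 with a prior count of 0.5 and 0 with deviations from the group means.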
